A study of Caenorhabditis elegans with 6 samples.

Results

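The genes described here are 10 sensors, chaperones and targets of the unfolded protein response of the endoplasmic reticulum (ER) in Caenorhabditis elegans. They are the sensor genes ire-1, pek-1 and atf-6, the transcription factor gene xbp-1, and the chaperone genes hsp-3, hsp-4, crt-1, cnx-1, enpl-1 and dnj-27. They were chosen by name, and each symbol matched 1 of the 46911 gene identifiers in the count tables. All 10 passed the filter on low counts and were among 13138 genes tested. RNA came from whole animals labelled L4, the last larval stage, grown at the same temperature on the same bacterial food. One group carried nmr-2(ok3324), an allele of the gene that encodes a subunit of NMDA-type glutamate receptors, and the other was the wild-type strain N2 (WT), each with 3 libraries. A single mutant allele was used. Separate cultures are not mentioned for the replicates, and p-values therefore rest on a spread between libraries that could be technical.

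Secreted and membrane proteins fold in the ER with the help of chaperones and disulfide-forming enzymes. When unfolded proteins build up, IRE-1, PEK-1 and ATF-6 each start a branch of the unfolded protein response. IRE-1 cuts a short intron out of xbp-1 mRNA so that the active transcription factor is made, PEK-1 slows translation by phosphorylating the initiation factor eIF2 alpha, and ATF-6 is released from the membrane by cleavage and enters the nucleus. In C. elegans the IRE-1 branch drives most of the induction of hsp-4, the usual reporter of ER stress, and it is also known to act in the export of the glutamate receptor GLR-1 from the ER of neurons. The comparison asks how the transcripts of this system stand in animals with the nmr-2 allele.

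Totals ran from 21234748 to 27893186 counts per library. The TMM scaling factor was 1.20 for nmr-2(ok3324) replicate 2 and 0.839 for WT replicate 2, against 0.987 to 1.01 for the other 4. Results are therefore given with all libraries and, for many of them, also without this pair. The fit without the pair has 2 libraries per genotype and 2 residual degrees of freedom, the rest of its total (median 37.2) being borrowed across genes. It called 345 genes higher and 185 lower, against 235 and 49 with all libraries. Its smaller SEs and its calls are therefore not stronger evidence. nmr-2 itself was read 3, 5 and 5 times in the mutant and 7, 2 and 10 times in WT, too few to check the genotype labels. Markers of intestine, germline, body wall muscle and neurons were all detected, as were 5 of 6 listed hypodermis markers after the filter. The yolk protein gene vit-2 stood at 15675 to 22230 CPM (counts scaled to 1e+06 per library with the TMM factors) and the cuticle collagen gene col-19 at 1732 to 2427 CPM across the 6 libraries. Both genes are known to be switched on strongly in adults, and such levels go against the label L4. In RNA from whole animals, fewer cells of a type and less RNA per cell cannot be told apart.

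None of the 10 genes changed between the genotypes at an edgeR adjusted p under 0.05, where 2.16% of all tested genes passed. DESeq2 and limma-voom also called 0 of the 10, beside 3.12% and 1.95% of all tested genes. At an unadjusted p under 0.05 there was 1, hsp-4, which was lower in the mutant, where 17.2% of all tested genes had such a p. The median log2 fold change of the 10 genes was 0.05, beside 0.03 over all tested genes, and 3 of the 10 lay below 0, as did 46.6% of all tested genes. The 95% interval of the fold change lay within 2-fold for all 10 genes and within 1.5-fold for 8 of them, the others being hsp-4 and atf-6. Over all tested genes, 72.5% of these intervals lay within 2-fold and 45.6% within 1.5-fold. These shares were not matched for abundance, and 6 of the 10 genes were among the most abundant 1314.

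**Figure D1:**
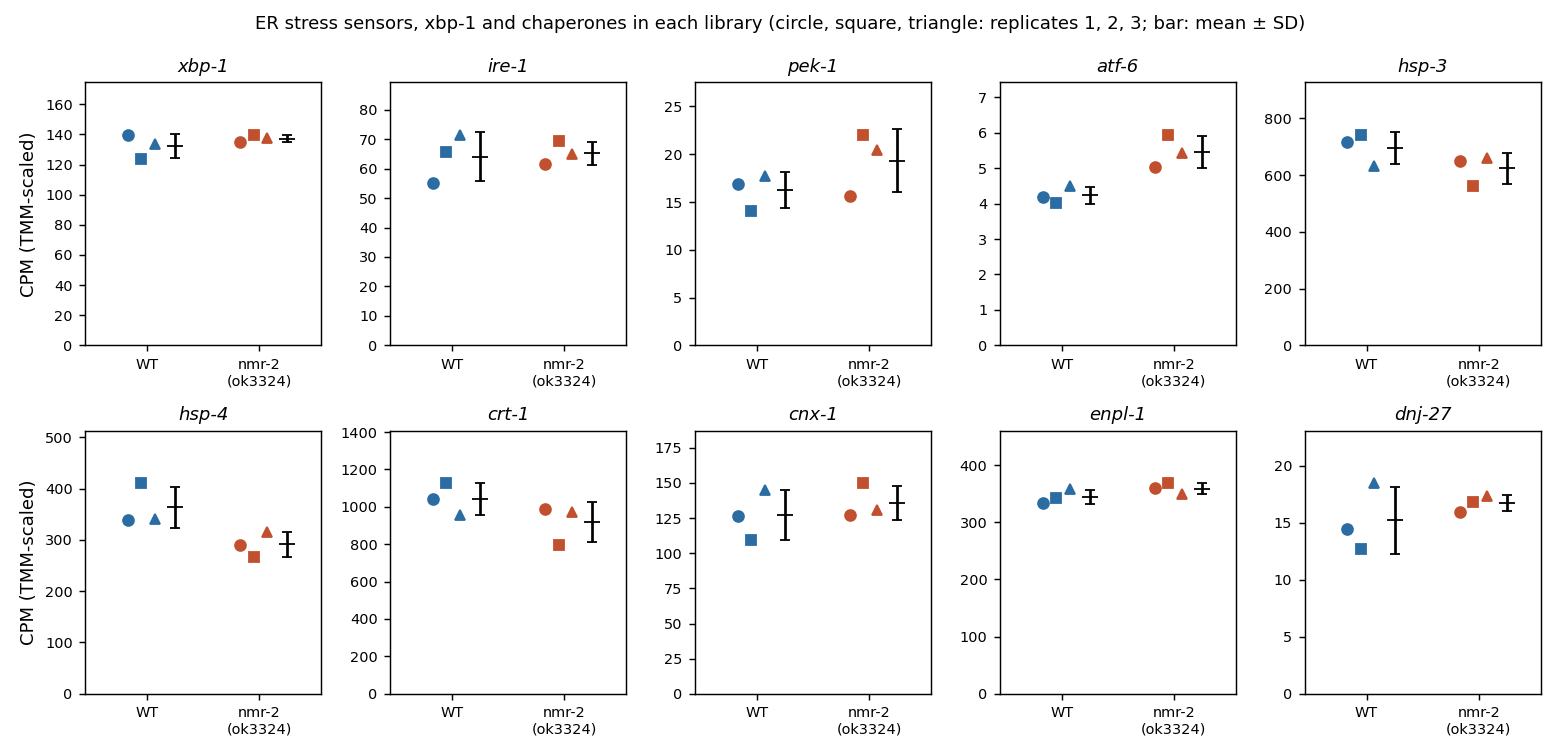
Level of each of the 10 genes in every library, in TMM-scaled CPM on linear axes from 0, with WT in blue and nmr-2(ok3324) in red. Symbols mark the replicate number and black bars the mean ± SD (n = 3). The groups lie apart for hsp-4 and atf-6 and overlap for the other 8 genes.

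Among the sensors, ire-1 encodes the kinase and endoribonuclease that processes xbp-1 mRNA (WBGene00002147, chromosome II, 8112243 to 8124910 in WBcel235, minus strand). Its level was 61.6, 69.3 and 64.9 CPM in replicates 1, 2 and 3 of nmr-2(ok3324), and in the same order 55.1, 65.5 and 71.4 CPM in WT. The lowest and the highest value both came from WT, and the mutant libraries lay between them. The log2 fold change was 0.03 (SE 0.11, 95% interval -0.22 to 0.27, edgeR adjusted p = 0.92). In fold terms this is 1.02, with an interval of 0.861 to 1.21.

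pek-1, on chromosome X (WBGene00003970, 11410176 to 11414887, minus strand), encodes the worm's counterpart of the mammalian kinase PERK. Mutant libraries held 15.6, 22.0 and 20.4 CPM and WT libraries 16.9, 14.1 and 17.7 CPM. Replicates 2 and 3 of the mutant were the highest of the 6, while replicate 1 of the mutant lay among the WT values. The log2 fold change of 0.25 (SE 0.15, interval -0.08 to 0.58) did not pass (edgeR adjusted p = 0.40), and it was 0.05 (SE 0.15) without both libraries numbered 2.

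atf-6 encodes the membrane-bound transcription factor of the third branch and was the rarest of the 10 transcripts (WBGene00000222, chromosome X, 12480948 to 12484904, plus strand). Counts were 142, 159 and 114 in the mutant and 97, 83 and 112 in WT. Scaled to depth these were 5.03, 5.93 and 5.41 CPM in the mutant and 4.17, 4.02 and 4.50 CPM in WT. Every mutant value lay above every WT value, a separation upward that 13.4% of all tested genes also had. With a log2 fold change of 0.37 (SE 0.20, interval -0.06 to 0.79), its difference was the most positive of the 10 genes and did not pass (edgeR adjusted p = 0.35). The interval reached 1.73-fold upward. Without both libraries numbered 2 the log2 fold change of atf-6 was 0.26 (SE 0.24).

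xbp-1 encodes the transcription factor made from the mRNA that IRE-1 cuts (WBGene00006959, chromosome III, 4193809 to 4195358, plus strand). Its levels were 135, 140 and 137 CPM in the mutant and 140, 124 and 134 CPM in WT. The mutant values varied little, with a coefficient of variation of 1.75%, and lay within the range of WT. The log2 fold change was 0.05 (SE 0.10, interval -0.17 to 0.27, edgeR adjusted p = 0.82). The annotation gives 2 transcripts with 1 coding sequence between them, and counts per gene add up the cut and uncut forms of the mRNA. They therefore give the amount of xbp-1 RNA and not how much of it IRE-1 had processed.

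Of the chaperones, hsp-3 and hsp-4 both encode BiP, the ER member of the HSP70 family that binds unfolded chains and holds the sensors inactive. They are closely related copies, so reads that match both can be lost or shared in the counting, and their separate values carry that uncertainty. hsp-4 (WBGene00002008, chromosome II, 7350112 to 7352645, minus strand) stood at 290, 267 and 316 CPM in the mutant libraries. In the WT libraries it stood at 339, 410 and 341 CPM. All mutant libraries lay below all WT libraries, as they did for 11% of all tested genes and 28.2% of the most abundant 1314 genes, which include hsp-4. The extremes were the replicates numbered 2 of each genotype. The log2 fold change was -0.32 (SE 0.13, interval -0.59 to -0.05), or 0.801-fold with an interval of 0.664 to 0.967, at an unadjusted edgeR p of 0.024. It did not pass the adjusted test (adjusted p = 0.23). Over the 14 alternatives tried, the value ranged from -0.39 to -0.14, always negative, with adjusted p from 0.14 to 0.54. It was -0.17 (SE 0.07, adjusted p = 0.18) without both libraries numbered 2.

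hsp-3 (WBGene00002007, chromosome X, 6089028 to 6092124, minus strand), the copy known for its high basal level, had 651, 561 and 661 CPM in the mutant and 716, 742 and 633 CPM in WT. The groups overlapped, since WT replicate 3 lay below 2 of the mutant libraries, and mutant replicate 2 was again the lowest. Its log2 fold change of -0.16 (SE 0.14, interval -0.46 to 0.15, edgeR adjusted p = 0.57) shrank to -0.04 (SE 0.07) without both libraries numbered 2. Counts of hsp-4 relative to hsp-3 within a library need no scaling between libraries. This ratio was 0.445, 0.476 and 0.478 in the mutant and 0.473, 0.553 and 0.538 in WT. The ranges overlapped by a small margin, and the log2 ratio differed by -0.16 between the genotypes (2-sided exact permutation test, n = 3 per genotype, p = 0.3, where 0.1 is the smallest this design allows). Without both libraries numbered 2 the log2 ratio differed by -0.13.

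**Figure D2:**
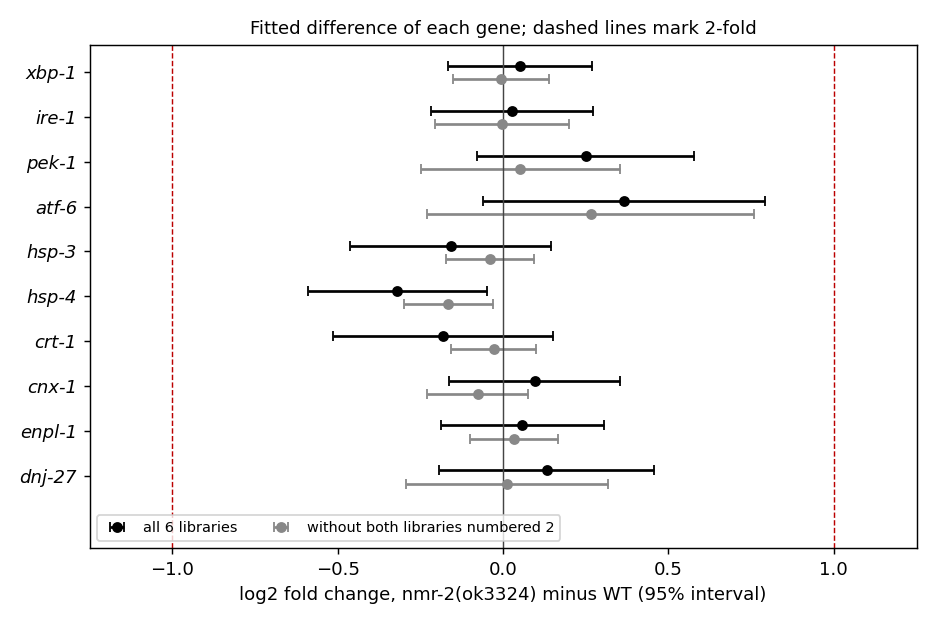
Fitted log2 fold change (nmr-2(ok3324) minus WT) of each gene with its 95% interval, from all 6 libraries (black) and from the 4 that remain without both libraries numbered 2 (grey). Dashed lines mark 2-fold. Every interval lies within 2-fold, and hsp-4 is the gene whose intervals, unadjusted for the number of genes, leave out 0.

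The lectin chaperones calreticulin and calnexin hold newly made glycoproteins until they are folded. Calreticulin, a lumenal protein that also stores calcium, is encoded by crt-1 (WBGene00000802, chromosome V, 6098992 to 6100542, minus strand) and was the most abundant of the 10 transcripts. It had 989, 794 and 971 CPM in the mutant and 1042, 1126 and 956 CPM in WT. WT replicate 3 lay below 2 mutant libraries, so the groups overlapped, and the 2 extremes were the libraries numbered 2. The log2 fold change was -0.18 (SE 0.16, interval -0.51 to 0.15, edgeR adjusted p = 0.55), and -0.03 (SE 0.06) without that pair. The exons of crt-1 share 92 bases with those of smut-1 on the opposite strand, and the strand setting of the counting is not given in the sources used here. Shorter overlaps of this kind exist for cnx-1 (49 bases with ZK632.14), enpl-1 (23 with spo-11) and ire-1 (4 with unc-105).

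Calnexin, the membrane-bound lectin, is encoded by cnx-1 (WBGene00000567, chromosome III, 9814364 to 9817137, minus strand). Its levels were 128, 150 and 130 CPM in the mutant and 127, 110 and 145 CPM in WT, with the groups overlapping and the libraries numbered 2 again at the ends, here in the opposite order to crt-1. The log2 fold change was 0.10 (SE 0.12, interval -0.16 to 0.35, edgeR adjusted p = 0.69) and turned to -0.08 (SE 0.08) without both libraries numbered 2. The count ratio of crt-1 to cnx-1 ranged from 5.30 to 7.75 in the mutant and from 6.59 to 10.3 in WT. Its log2 value differed by -0.29 between the genotypes (2-sided exact permutation test, n = 3 per genotype, p = 0.4), and by 0.05 without the libraries numbered 2.

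enpl-1 encodes endoplasmin, the ER form of HSP90 (WBGene00011480, chromosome IV, 11119298 to 11123155, plus strand). It was the steadiest of the chaperones, at 359, 368 and 349 CPM in the mutant and 334, 342 and 357 CPM in WT. WT replicate 3 lay above mutant replicate 3, and the coefficient of variation was 2.72% in the mutant and 3.41% in WT. Its log2 fold change was 0.06 (SE 0.12, interval -0.19 to 0.31, edgeR adjusted p = 0.82). dnj-27, on chromosome I (WBGene00001045, 11877803 to 11887278, plus strand), encodes the counterpart of mammalian ERdj5, which has a J domain that recruits HSP70 and thioredoxin domains that reduce disulfides. It was rare, at 16.0, 16.8 and 17.3 CPM in the mutant and 14.5, 12.7 and 18.5 CPM in WT. The mutant values lay inside the wider WT range, and the log2 fold change was 0.13 (SE 0.15, interval -0.19 to 0.46, edgeR adjusted p = 0.66). It was 0.01 without WT replicate 2, 0.28 without WT replicate 3 and 0.01 (SE 0.15) without both libraries numbered 2.

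Levels between genes were compared as CPM per kb of exon. In WT the order ran from crt-1 (743 ± 60.6 CPM per kb, SD, n = 3) through hsp-3 (261 ± 21.3), hsp-4 (163 ± 18.3), enpl-1 (130 ± 4.42), xbp-1 (91.6 ± 5.52) and cnx-1 (59.4 ± 8.26). The sensors and the co-chaperone gene were far below, with ire-1 at 18.8 ± 2.43 CPM per kb, dnj-27 at 6.08 ± 1.18, pek-1 at 4.38 ± 0.511 and atf-6 at 1.76 ± 0.103. No neighbours in this order overlapped over the WT libraries. The mutant had the same order save that enpl-1 (131 to 139 CPM per kb) stood above hsp-4 (119.7 to 142) on average, and the ranges of this pair overlapped. The count ratio of hsp-4 to enpl-1, a ratio chosen after the values were seen and therefore not tested, was 0.807, 0.726 and 0.907 in the mutant and 1.01, 1.20 and 0.954 in WT. It was lower in each mutant library than in any WT library.

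Summed over the 10 genes, the mutant libraries held 2649, 2394 and 2672 CPM and the WT libraries 2788, 2949 and 2678 CPM. The mutant sums lay below the WT sums, the closest pair being 2672 and 2678 CPM. The ratio of the means was 0.917, or -0.13 in log2, and without the libraries numbered 2 it was -0.04. The 6 chaperone genes summed to 2344 ± 163 CPM in the mutant and 2588 ± 146 CPM in WT (SD, n = 3), with lower means in the mutant for crt-1, hsp-3 and hsp-4 and higher means for the other 3. The sensors and xbp-1 together summed to 227 ± 9.95 and 217 ± 10.1 CPM. As a share of all counts, with no scaling factor, the 10 genes took 0.265% to 0.286% of the mutant libraries and 0.247% to 0.281% of the WT libraries, so that the direction of the sum turned with the scaling (0.05 in log2 with library totals alone).

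From library to library, some of the 10 genes varied together and others in opposite directions. Here hsp-3, hsp-4 and crt-1 were set apart from the other 7 after the correlations were seen, so the contrast between these sets is a description that the choice fixed. Log2 CPM of hsp-3, hsp-4 and crt-1 correlated with each other at 0.85 to 0.98 over the 6 libraries, and with the other 7 genes at -0.91 to -0.10 in all 21 pairs. Among the other 7, 20 of 21 pairs correlated above 0, with a median of 0.64. With genotype means removed the medians were 0.78, -0.67 and 0.61. These values describe 6 libraries that share their scaling factors, and they rest in part on the libraries numbered 2: without these, 7 of the 21 pairs between the sets were above 0, and the medians were 0.28, -0.52 and 0.38. Relative to the mean of its genotype, crt-1 stood at -0.20 in mutant replicate 2 and at 0.12 in WT replicate 2, in log2 CPM. cnx-1 had the opposite sign, at 0.14 and -0.20. Scaling factors stood apart in the same libraries, and their part in this was not tested.

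The size of the fold change shifted with abundance across the table. When all tested genes were split by mean level into 10 bins of equal size, 6 of the 10 genes lay in the most abundant bin. In that bin the median log2 fold change was -0.19, and 83.9% of genes lay below 0. hsp-3 and crt-1 lay close to that median at -0.16 and -0.18, hsp-4 lay lower at -0.32, and enpl-1, cnx-1 and xbp-1 lay above 0. In the bin that held atf-6 the median was 0.18, beside 0.37 for atf-6 itself, and in the bin of pek-1 and dnj-27 it was 0.02. The part of abundance in the single values was not tested.

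**Figure D3:**
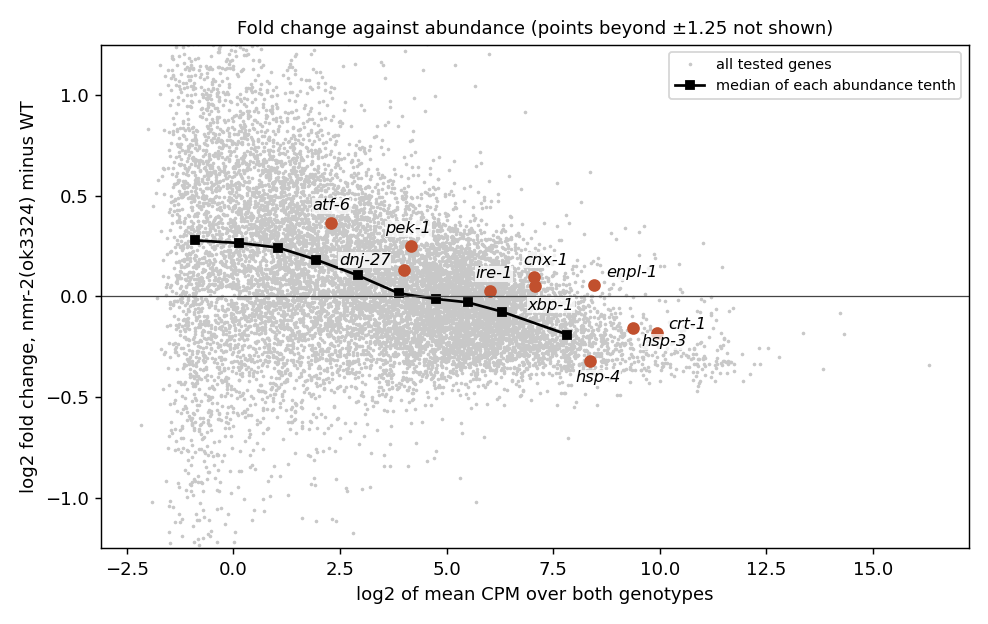
Log2 fold change (nmr-2(ok3324) minus WT) against log2 mean CPM for all tested genes (grey), with the 10 genes in red and the median of each of 10 abundance bins in black. The medians run from 0.28 in the least abundant bin to -0.19 in the most abundant. Both hsp-3 and crt-1 lie about as low as the right end of the black line.

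The rest of the ER folding system was followed in lists by function, and none of its genes passed either with edgeR. These lists hold 49 tested genes, of which 25 lay in the most abundant bin. In that bin 23 of the 25 lay below 0, beside 83.9% of all genes there, and in the other bins 14 of 24 did. Of 5 disulfide enzyme genes, 0 passed, all 5 lay below 0 and the median log2 fold change was -0.19. pdi-3, a protein disulfide isomerase gene, had the smallest p (-0.30, SE 0.14, unadjusted p = 0.044), at 592 ± 2.18 CPM in the mutant and 728 ± 48.0 CPM in WT (SD, n = 3; edgeR adjusted p = 0.28). Without both libraries numbered 2, which leaves 2 per genotype, it was called (-0.27, edgeR adjusted p = 0.0095). pdi-1 was next (-0.33, SE 0.17).

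Of 6 genes for co-chaperones and accessory HSP70 proteins 0 passed, 1 lay below 0 and the median log2 fold change was 0.19. T14G8.3, which encodes a large HSP70 relative akin to mammalian HYOU1, stood at 30.5 ± 7.72 CPM in the mutant and 20.9 ± 3.53 CPM in WT (SD, n = 3), a log2 fold change of 0.54 (SE 0.17, edgeR adjusted p = 0.14). The ranges overlapped at mutant replicate 1 and WT replicate 3. stc-1, another HSP70 relative, had a log2 fold change of 0.29 (SE 0.12, edgeR adjusted p = 0.24). T14G8.3 was called in the fit without the low-count filter (adjusted p = 0.0055) and in no other.

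ER-associated degradation, which carries misfolded proteins back to the cytosol for the proteasome, had 15 tested genes of 18 listed. Of these 0 passed and 13 lay below 0, with a median log2 fold change of -0.20. Both copies of npl-4, whose product works with the CDC-48 ATPase to extract substrates, led the list. npl-4.2 had 37.4 ± 6.85 CPM in the mutant and 53.1 ± 4.49 CPM in WT (SD, n = 3). Its log2 fold change was -0.50 (SE 0.13) with an edgeR adjusted p of 0.069, and DESeq2 called it (adjusted p = 0.037), as did the fits without mutant replicate 1 and without the low-count filter. npl-4.1 stood at -0.37 (SE 0.15, edgeR adjusted p = 0.24), and reads can be shared between these near-identical copies.

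Protein entry into the ER and glycosylation were counted next. Of 9 translocon and signal peptide genes 0 passed and 8 lay below 0 (median log2 fold change -0.23), these 8 being the ones in the most abundant bin. sec-61.B, for a subunit of the translocation channel, had 122 ± 17.2 CPM in the mutant and 171 ± 29.8 CPM in WT (SD, n = 3; -0.48, SE 0.14, edgeR adjusted p = 0.10), and was called by DESeq2 (adjusted p = 0.043) and without the low-count filter. The signal peptidase gene spcs-2 had -0.27 (SE 0.13). Of 7 genes for N-glycosylation and glycoprotein folding control 0 passed and 4 lay below 0 (median -0.16), led by the oligosaccharyltransferase genes ostd-1 (-0.32, SE 0.15) and ostb-1 (-0.23, SE 0.11).

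Further regulators of the response gave no call. Of 7 tested, 6 lay below 0, with a median log2 fold change of -0.09. eif-2alpha, whose product PEK-1 phosphorylates, had -0.29 (SE 0.13, edgeR adjusted p = 0.28), and manf-1, for a secreted ER stress protein, had -0.27 (SE 0.12, adjusted p = 0.29). atf-4, the transcription factor gene downstream of eIF2 alpha, had -0.02 (SE 0.11) and rtcb-1, for the ligase that joins the cut xbp-1 mRNA, 0.02 (SE 0.14); both were named after their values were seen. Over these 6 ER lists together the unadjusted p was under 0.05 for 1, 2, 3, 1, 1 and 2 genes, in the order disulfide, co-chaperone, degradation, translocon, glycosylation and further regulators. That is 20.4% of the 49 genes, near the 17.2% of all tested genes.

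Chaperones of other compartments served for comparison. Of 10 genes of the mitochondrial unfolded protein response 0 passed (median log2 fold change 0.02). The mitochondrial chaperone gene hsp-60 was lower in each mutant library than in any WT library, at 675 ± 18.6 and 853 ± 20.1 CPM (SD, n = 3; -0.34, SE 0.14, edgeR adjusted p = 0.23). Of the genes in the most abundant bin, which held hsp-60, 28.2% separated downward in this way. hsp-60 was called by DESeq2 (adjusted p = 0.026) and without both libraries numbered 2 (edgeR adjusted p = 0.0022). hsp-6 was called in the latter fit as well (-0.23, adjusted p = 0.039). The J-domain gene dnj-10 had 0.44 (SE 0.14, adjusted p = 0.15). Of 5 tested cytosolic chaperone genes 0 passed (median -0.24), those with the smallest p being hsp-70 (1.14, SE 0.57), under 2 CPM in every library, and hsp-110 (-0.24, SE 0.13). The filter on low counts left out hsp-16.2, hsp-16.41, F44E5.4 and F44E5.5, heat-inducible genes with at most 24 counts in any library. The count ratio of hsp-3 plus hsp-4 to hsp-1, the main cytosolic HSP70, was 0.183, 0.234 and 0.184 in the mutant and 0.205, 0.173 and 0.199 in WT. Its log2 value differed by 0.05 between the genotypes (2-sided exact permutation test, n = 3 per genotype, p = 0.8), and by -0.14 without the libraries numbered 2.

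**Figure D4:**
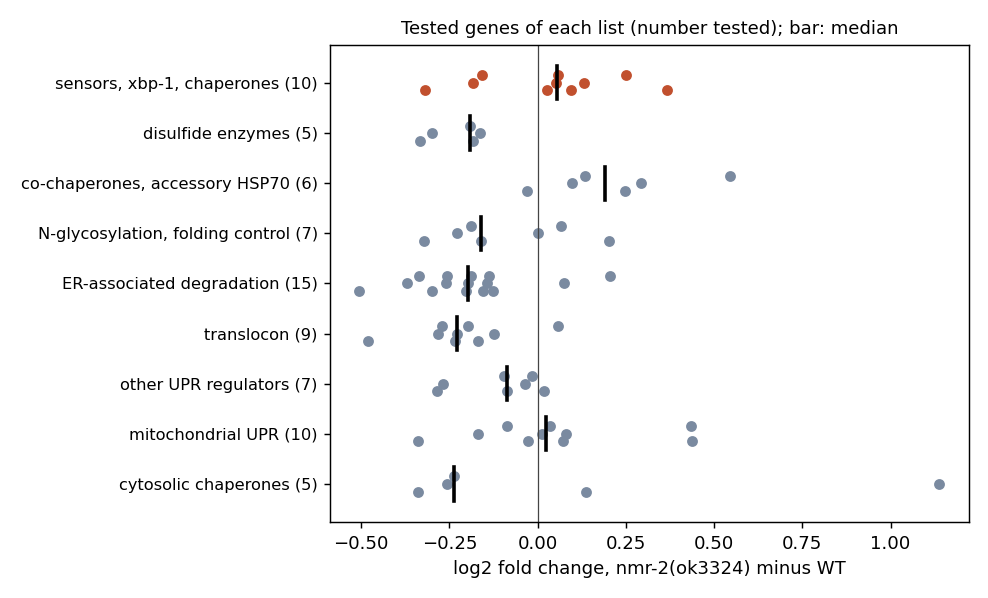
Log2 fold change (nmr-2(ok3324) minus WT) of each tested gene in the 10-gene set (red) and in 8 lists of related function (grey-blue), with the number tested in brackets and the median as a black bar. Medians lie between -0.24 for cytosolic chaperones and 0.19 for co-chaperones and accessory HSP70 proteins, and no point passed the edgeR test.

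Markers of cell types were counted in the same way, and edgeR called 0 of the germline, intestine, muscle and neuron markers. All 9 germline markers lay below 0 and 8 of them separated downward, as did 28.2% of genes in the most abundant bin, which held 7 of the 9. Their sums were 3524 to 4453 CPM in the mutant and 4706 to 5444 CPM in WT. For the intestine, 9 of 10 markers lay below 0, 7 of them in that bin, with sums of 50692 to 62693 and 63957 to 66422 CPM. Yolk protein genes made up most of these sums, vit-2 and vit-6 alone averaging 19018 and 18656 CPM in the mutant. The marker above 0, elt-2 (0.32, SE 0.16, edgeR adjusted p = 0.32), was higher in each mutant library than in any WT library. Of all tested genes, 13.4% separated upward in this way. The groups overlapped for act-5 (-0.09) and ifb-2 (-0.01). The yolk protein genes vit-1, vit-3 and vit-4 were called lower by DESeq2 (adjusted p = 0.037, 0.0497 and 0.017) and by edgeR without both libraries numbered 2 (adjusted p = 0.0015, 0.0068 and 0.0024). Of 5 hypodermis markers dpy-13 (log2 fold change 1.88) and sqt-3 (0.98), both collagen genes, rose with edgeR. The summed level overlapped at 1810 to 2449 CPM in the mutant and 1917 to 2453 CPM in WT. That sum was mostly col-19 (2074 and 2107 CPM on average, log2 fold change -0.02) and says little about the other markers. rol-6 stood at 1.13 (SE 0.30, edgeR adjusted p = 0.069). It was called by DESeq2 (adjusted p = 0.017) and limma-voom (adjusted p = 0.0495), and by edgeR without the low-count filter or without WT replicate 1. The call of dpy-13 was lost without both libraries numbered 2 (1.89, adjusted p = 0.099), and that of sqt-3 without mutant replicate 1 (0.74, adjusted p = 0.085) or without WT replicate 3 (0.93, adjusted p = 0.061). Muscle markers summed to 5329 to 6459 CPM in the mutant and 5174 to 5649 CPM in WT, and the myosin gene unc-54 was called higher without both libraries numbered 2 (0.25, edgeR adjusted p = 0.011). Neuronal markers summed to 172 to 187 and 183 to 192 CPM, a sum made up mostly of snb-1 (128 and 147 CPM on average), the 1 marker of the 6 below 0. The median log2 fold change of the 6 was 0.34. The 5 above 0 lay outside the most abundant bin, in bins whose medians over all tested genes were 0.18, 0.10 and -0.01. The germline sum and the intestine sum, the latter mostly yolk protein RNA, separated in the same direction as hsp-4. This was not particular to them. The sums of the degradation, N-glycosylation, further regulator and mitochondrial lists also separated downward. For degradation the sums were 2153 to 2616 CPM in the mutant and 2705 to 3016 CPM in WT. The co-chaperone sum separated upward, and the disulfide, translocon and cytosolic chaperone sums overlapped. The part of any of these sums in the level of hsp-4 was not tested.

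The abu genes are named for their activation when the ER response is blocked, as in xbp-1 mutants. All 10 tested, of 14 listed by name in the tables, rose with edgeR, by 1.84 to 3.18 in log2, where 1.79% of all tested genes rose. Together they went from 5.04 to 10.4 CPM in the WT libraries to 36.1 to 38.1 CPM in the mutant. In the same libraries xbp-1, ire-1, pek-1, atf-6 and hsp-4 had the values given above, none of which passed. Cuticle collagen genes named col also rose, 42 of 103 tested, and 24 of these by at least as much as the abu gene with the smallest change. The means of single abu genes over the 6 libraries were low, from 1.19 to 4.86 CPM. Both families were singled out with their values known, and similar copies in them can share reads. What raised them, and whether the ER response had a part in it, was not tested.

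The genes whose levels followed hsp-4 most closely were taken from 6677 genes that averaged 10 CPM or more, by Pearson's r of log2 CPM over the 6 libraries. They were F42A10.7 (r = 0.997), Y71F9AL.10 (0.997), ubql-1 (0.996), ctns-1 (0.993) and B0513.4 (0.992). ubql-1 encodes ubiquilin, which delivers ubiquitinated proteins to the proteasome, and ctns-1 the lysosomal cystine transporter cystinosin. None of the 5 passed with edgeR, with log2 fold changes of -0.44 to -0.22. With 6 libraries and this many genes, such values describe the libraries and are not tested.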

How the data were processed

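Each library came as a table of raw counts per gene, whole numbers without normalization, deposited by the authors. HTSeq and DESeq2 are named, with no version, per the submitters' processing notes. The sources used here do not state the aligner, the build, the annotation or the strand setting. Symbols came from a name table, which matched 114 of 120 listed symbols, and coordinates and exon lengths from the WBcel235 annotation of Ensembl by gene identifier.

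Counts were fitted in R 4.3.3 with edgeR 4.0.16 (filterByExpr with nmr-2 and the 10 genes kept in any case, TMM, robust glmQLFit, glmQLFTest) and Benjamini-Hochberg adjustment over 13138 genes at 0.05. "Rose", "passed" and "called" refer to this threshold. The SE is the absolute log2 fold change divided by the square root of F, and 95% intervals use the fit's total degrees of freedom. Log2 CPM used a prior count of 2. The fit was tested on simulated counts with planted changes. These held no shift of fold change with abundance, so that test is no support for the calls, or their absence, here. Ratios of counts were compared by exact permutation over libraries. Depth was 21234748 to 27893186 counts per library, so that 3 counts correspond to 0.108 to 0.141 CPM.

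The genes, lists and tests were chosen with earlier results of these data known. Named genes are nmr-2, the 10 genes, the 2 of each functional list with the smallest p, any past the threshold, and the 5 most like hsp-4. hsp-1 entered through a planned ratio. The genes atf-4, rtcb-1 and hsp-6, and the single cell type markers other than dpy-13 and sqt-3, were named after their values were seen. The alternatives were DESeq2 1.42.0, limma-voom (limma 3.58.1), RLE factors, library totals, no filter, 1 CPM in 3 libraries, the replicate block, leaving out each library, and leaving out both libraries numbered 2. Figures were drawn with matplotlib 3.10.9.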

Additional observations from a re-analysis of the deposited data

How the results depend on the processing

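None of the 10 genes was called under any of the 14 alternatives. Of 140 values (10 genes, 14 alternatives), 130 kept their direction and 10 reversed, all with edgeR or DESeq2 adjusted p of 0.69 or more. ire-1 turned to -0.0026 with DESeq2, -0.0026 with RLE factors, -0.023 without nmr-2(ok3324) replicate 2, -0.071 without WT replicate 1 and -0.0023 without both libraries numbered 2. xbp-1 turned to -0.0036 without WT replicate 2 and -0.0070 without both libraries numbered 2, cnx-1 to -0.0087 and -0.076 in these fits, and hsp-3 to 0.012 with library totals alone. Leaving out single libraries gave -0.071 to 0.10 for ire-1, -0.0036 to 0.089 for xbp-1 and -0.0087 to 0.19 for cnx-1. Library totals alone moved the median of all genes to 0.20, and the median of the 10 to 0.23, which is 0.03 above it. Without single libraries the median of the 10 lay between 0.0033 and 0.09. The summed level went from -0.13 to 0.048 with library totals and to -0.039 without both libraries numbered 2.

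The log2 ratio of hsp-3 plus hsp-4 to hsp-1 differed by -0.14, and that of crt-1 to cnx-1 by 0.046, without both libraries numbered 2. Without single libraries the former lay between -0.061 and 0.11, negative when either library numbered 2 was left out (-0.061 in the mutant, -0.021 in WT), and the latter between -0.45 and -0.11.

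Over all genes, 235 were higher and 49 lower. These counts were 441 and 155 without the low-count filter, and 345 and 185 without both libraries numbered 2. Lower genes numbered 105 with DESeq2 and 16 with library totals. Without single libraries the counts were 151 to 226 and 30 to 52. With the replicate number as a block they were 124 and 18, with 0 of the 10 genes called. The same-numbered libraries did not deviate together (r = 0.00077, -0.28 and -0.10), so the numbers were not treated as pairs. The causes were not tested. atf-6 had the fewest counts of the 10 genes, 83 to 159 per library. Counting error was not separated from the spread between libraries.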
